A study of Homo sapiens with 52 samples.

Results

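The aryl hydrocarbon receptor and its best-known target genes were followed across 52 poly(A) RNA libraries of hepatoblastoma cells and macrophages. The 8 genes, chosen by symbol from the 62696 rows of the tumour line table and the 61209 rows of the macrophage table, were AHR, ARNT, AHRR, TIPARP, CYP1A1, CYP1A2, CYP1B1 and LRAT. HepG2 and Huh6, both hepatoblastoma lines, received vehicle, PKF118-310 or iMDK for 48 h. PKF118-310 is a small molecule that breaks the contact between beta-catenin and TCF factors, and iMDK is an inhibitor that lowers the growth factor midkine. Huh6 was treated with 0.2, 0.3 or 0.4 uM PKF118-310 and with 5 or 10 uM iMDK (18 libraries with vehicle), and HepG2 with 0.2 or 0.3 uM PKF118-310 and with 5 or 10 uM iMDK (13 libraries with vehicle). THP-1, a monocytic leukaemia line turned into macrophages with 80 ng/ml of the phorbol ester PMA and rested without it, was kept alone or shared a culture with HepG2 or Huh6 cells for 24 h and was then sorted (21 libraries). Those tumour cells were untreated or had first received 5 or 10 uM iMDK for 24 h. There were 3 libraries per group, and only 1 for HepG2 at 0.3 uM PKF118-310. The labels do not say whether the libraries of a group came from separate cultures, so n counts libraries and the p-values measure the spread between them, which may be technical. The lines are immortal, so each group is a set of cultures of 1 line and not of several tumours or donors.

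AHR is a ligand-activated transcription factor of the bHLH-PAS family that waits in the cytoplasm with HSP90 and p23. A ligand (dioxin-like pollutants, dietary indoles or tryptophan metabolites such as kynurenine) sends it to the nucleus, where it pairs with ARNT and binds the short DNA core GCGTG in xenobiotic response elements. ARNT is shared with the hypoxia-inducible factors. The pair turns on the monooxygenases CYP1A1, CYP1A2 and CYP1B1, which oxidise many ligands, and 2 brakes, the repressor AHRR and the mono-ADP-ribosyltransferase TIPARP. In liver, CYP1A2 is the constitutive member of the CYP1 family and CYP1A1 the strongly inducible one. LRAT, the enzyme that esterifies retinol for storage, is known mainly as a retinoic acid target and links the pathway to vitamin A handling.

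The response element core was searched on both strands, as GCGTG or its reverse complement CACGC, since CYP1A1 and TIPARP carry most of the results below. The search covered the 250 bases before the RefSeq transcription starts at hand for the members, and base positions count from those starts. RefSeq starts can lie inside the longer GENCODE spans given below, and the listed sites of CYP1A1 and TIPARP do. RefSeq windows (GRCh38.p14) were at hand for 7 of the 8 genes, without CYP1B1. CYP1A1 had 1 match, TIPARP 2 in the first of its 3 windows, and AHRR 1 and 2 in its pair of windows, while ARNT, AHR, CYP1A2 and LRAT had none in theirs. Of all 35116 RefSeq windows of this length, 32.2% held the core, so a match on its own is a description and not a binding site. The matches of CYP1A1 and TIPARP with 12 bases on either side are given 5′ to 3′ on the gene's strand, with the core in capitals.
CYP1A1, minus strand of chr15:74725569-74725597, core from base -57 to -53: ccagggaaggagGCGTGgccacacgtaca
TIPARP, plus strand of chr3:156674370-156674398, core from base -208 to -204: cgcgagaaaggaCACGCcccctcgcggga
TIPARP, plus strand of chr3:156674436-156674464, core from base -142 to -138: cgaacgaacgcgCACGCgcgcgcaggggg
The CYP1A1 core reads GCGTG on the gene's own strand, and both TIPARP cores read it on the opposite strand.

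The THP-1 libraries held 12.6 to 16.9 M counted reads, fewer than those of Huh6 (18.2 to 19.9 M) or HepG2 (18.3 to 20 M). Levels are given as CPM, the deposited raw counts scaled to library size with TMM factors, the tumour lines and THP-1 each on their own. Changes are log2 fold changes ± SE from edgeR's two-sided quasi-likelihood test, with Benjamini-Hochberg adjusted p-values over all genes tested and a threshold of 0.05, and the SE was taken as the size of the change over the root of the F value. The summed liver markers were 9794 to 9932 CPM in vehicle-treated Huh6 and 24730 to 27470 CPM in vehicle-treated HepG2. They were lower under every inhibitor, down to 5620 to 6718 CPM in Huh6 at 0.4 uM PKF118-310 and 6017 to 6698 CPM in HepG2 at 0.2 uM. Of 10 macrophage markers, 8 or 9 were detected in each THP-1 group, with CD68 at 0 in all of them. CD68 was also at 0 in every tumour line group, and no level of it is read from that row. In bulk RNA, fewer cells with a transcript and less of it per cell cannot be told apart.

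The receptor itself could not be read from these tables. The AHR row (chromosome 7, 16916359 to 17346152 on GRCh38, GENCODE 29) held 0 to 3 counts in the tumour lines and 0 to 5 in THP-1, and AHRR (chromosome 5, 304176 to 438291) held 0 in all 52 libraries. Both genes overlap another annotated gene on their own strand. In GENCODE 29, AHR shares 2373 of its 8081 exon bases with AC019117.2, and AHRR shares 244 of 7678 with PDCD6. The counts were made with another release, not named in the sources used here. It has a readthrough gene, PDCD6-AHRR, that covers PDCD6 and AHRR. Overlaps in that release were not measured and may differ. In THP-1 the readthrough row held 118 to 383 counts while the PDCD6 row was at 0. How the counting treated reads that fall in more than one gene is not given in the sources used here, and its part in these low rows was not tested, so no level of AHR or AHRR is given.

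ARNT, the partner of AHR (chromosome 1, 150809705 to 150876768), was present in all 3 lines and moved little. In HepG2 it was 46.9, 45.2 and 46.0 CPM with vehicle and 52.8, 53.8 and 58.6 CPM at 0.2 uM PKF118-310, with no overlap and a rise of 0.27 ± 0.0562 (adjusted p = 5.888e-05). In Huh6 it was 64.8, 65.3 and 63.9 CPM with vehicle and 53.0, 56.7 and 54.1 CPM at 10 uM iMDK, with every treated library below the controls and a log2 fold change of -0.20 ± 0.0449 (adjusted p = 0.000189). The 3 Huh6 libraries at 0.4 uM PKF118-310 held 56.2 to 60.6 CPM, and those at 5 uM iMDK 57.6 to 61.0 CPM. Both sets lay below the controls (-0.11 each, adjusted p = 0.03618 and 0.04368). Both small changes were marginal, and each lost its call in 5 of 6 fits with a library left out. They also failed with DESeq2 (adjusted p = 0.09385 and 0.1035) and with no filter on low counts (0.06465 and 0.1079). Without Huh6 vehicle replicate 2 the adjusted p-values were 0.1141 and 0.1422, and leaving out either other vehicle library also lifted both above the threshold. The vehicle-treated lines differed, with HepG2 lower by a log2 difference of -0.50 (adjusted p = 5.84e-13).

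How many of the 8 genes could be tested, and how many passed, depended on the line. In Huh6, 5 of the 8 had enough counts (ARNT, TIPARP, CYP1A1, CYP1A2 and LRAT), and in HepG2 3 (ARNT, TIPARP and CYP1A1). At 0.2 uM PKF118-310, 0 of the 5 passed in Huh6 with edgeR, where 2.24% of all genes tested passed, and 0 with DESeq2. With edgeR 0 had an unadjusted p under 0.05. At 0.3 uM 1 passed, lower, against 28.5% of all genes (13.5% lower), and at 0.4 uM 4 passed, 1 higher and 3 lower, against 56.8%. With iMDK in Huh6, 3 of the 5 passed at 5 uM and 2 at 10 uM, all lower, where 35.6% and 52.1% of all genes passed, 18.3% and 26.1% lower. In HepG2 all 3 rose at 0.2 uM PKF118-310, where 71.9% of all genes passed and 36.3% rose. With iMDK in HepG2, 1 rose at 5 uM (51.6% of all genes passed, 25.6% higher) and 2 at 10 uM (58.8%, 29.7% higher). With so many genes passing, the counts say little about these genes as a set, and the sizes below carry the description.

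CYP1A1, the inducible monooxygenase that is the usual readout of the receptor (chromosome 15, 74719542 to 74725610, minus strand), fell in Huh6 and rose in HepG2. In Huh6 it was 64.5, 67.7 and 67.8 CPM with vehicle and 64.2, 60.2 and 62.3 CPM at 0.2 uM PKF118-310. At 0.3 uM it was 53.2, 56.7 and 50.9 CPM, and at 0.4 uM 46.4, 47.5 and 45.7 CPM. The libraries of each dose lay below those of the dose before. The log2 fold change against vehicle was -0.10 ± 0.0517 (adjusted p = 0.4347), -0.29 ± 0.0527 (2.058e-05) and -0.48 ± 0.0537 (2.921e-10) at the 3 doses. The steps from 0.2 to 0.3 uM (-0.20, adjusted p = 0.005445; 21.2% of all genes passed, 9.75% lower) and from 0.3 to 0.4 uM (-0.18, 0.006989; 40.8%) also passed. Each step lost its call without a library at 0.3 uM, the first without replicate 3 (0.06402) and the second without replicate 2 (0.07029).

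iMDK lowered CYP1A1 in Huh6 much further. At 5 uM the gene was at 22.1, 19.6 and 22.6 CPM and at 10 uM at 19.9, 18.9 and 15.9 CPM. All 6 libraries lay far below the vehicle libraries, while the 2 doses overlapped. The log2 fold change was -1.61 ± 0.0598 at 5 uM (adjusted p = 3.459e-25) and -1.82 ± 0.0617 at 10 uM (3.311e-27). Among 15029 genes tested, CYP1A1 ranked 45 from the lowest at 5 uM and 126 at 10 uM. The difference between the doses was -0.21 (adjusted p = 0.02696; 24.9% of all genes passed, 12.2% lower), and it lost its call without iMDK 5 uM replicate 1 or 3 or 10 uM replicate 3, with adjusted p-values of 0.09852, 0.1453 and 0.2643.

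In HepG2 the starting level was lower and PKF118-310 raised it. CYP1A1 was 10.5, 11.2 and 9.39 CPM with vehicle and 70.9, 68.7 and 68.1 CPM at 0.2 uM, a rise of 2.75 ± 0.072 (6.71-fold, adjusted p = 1.815e-28) that ranked 336 from the highest among 14111 genes. The treated HepG2 libraries lay just above those of vehicle-treated Huh6 (64.5 to 67.8 CPM). The single library at 0.3 uM held 272 CPM from 5007 counts, which is 26.2-fold over the vehicle mean and ranked 10 among the 14111 genes on the log2(CPM + 0.5) scale. That library has no replicate and no test, and 16.9% of genes lay at least 2-fold from vehicle in it (7.26% higher). iMDK did little to the gene in HepG2. The 3 libraries at 5 uM held 10.3, 9.54 and 11.4 CPM and overlapped the controls (0.01, adjusted p = 0.9142). At 10 uM they held 13.3, 11.9 and 11.4 CPM, just above the controls (0.24 ± 0.0902, adjusted p = 0.01931). That call ended without HepG2 vehicle replicate 3 (0.1234), without iMDK 10 uM replicate 1 (0.1297) and with DESeq2 (0.05055).

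**Figure D1:**
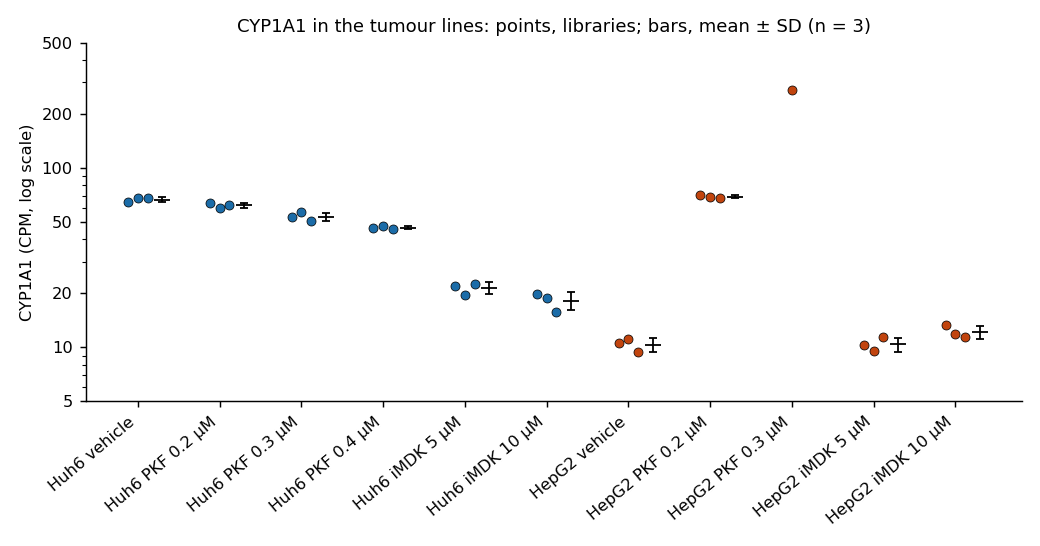
CYP1A1 level in each tumour line library (points, CPM on a log axis) with the mean ± SD of 3 libraries (bars), Huh6 in blue and HepG2 in orange. Huh6 falls from 64.5 to 67.8 CPM with vehicle to 15.9 to 19.9 CPM at 10 uM iMDK, while HepG2 rises from 9.39 to 11.2 CPM with vehicle to 68.1 to 70.9 CPM at 0.2 uM PKF118-310 and 272 CPM in the single library at 0.3 uM.

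The plot of CYP1A1 by library gives the order of the groups. The single HepG2 library at 0.3 uM PKF118-310 stood highest, followed by HepG2 at 0.2 uM, Huh6 with vehicle, and Huh6 with 0.2, 0.3 and 0.4 uM PKF118-310. Below them came Huh6 with 5 and 10 uM iMDK, HepG2 with 10 uM iMDK, and last HepG2 with 5 uM iMDK and with vehicle. Neighbours that overlapped were the 2 iMDK doses in Huh6, the 2 iMDK doses in HepG2, and HepG2 with 5 uM iMDK and vehicle. In a fit of both lines, vehicle-treated HepG2 was lower than Huh6 by a log2 difference of -2.69 ± 0.0715 (adjusted p = 6.327e-38). There, ARNT, TIPARP and CYP1A1, the genes with enough counts in each line, were lower in HepG2, where 79.5% of all genes differed and 41.3% were lower. CYP1A2 and LRAT entered that fit only through Huh6, where they are higher, and are not counted. The change under the same dose differed between the lines, HepG2 minus Huh6, by 2.86 ± 0.0909 at 0.2 uM PKF118-310 (adjusted p = 1.917e-33), 1.65 at 5 uM iMDK (8.579e-18) and 2.10 at 10 uM iMDK (1.508e-22). In these tests of a difference, those 3 genes passed each time, all in the direction of HepG2, against 53.6%, 31.6% and 40% of all genes, and 27.5%, 15.1% and 19.9% lay in that direction.

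CYP1A2, the constitutive liver monooxygenase, lies next to CYP1A1 and is read away from it (chromosome 15, 74748844 to 74756202, plus strand, with 23234 bases between the starts). It was near the limit of detection. In Huh6 it had 11, 11 and 9 counts with vehicle, 7, 7 and 12 at 0.2 uM PKF118-310, 3, 9 and 8 at 0.3 uM, and 1, 3 and 5 at 0.4 uM. With iMDK it had 6, 3 and 1 counts at 5 uM and 7, 4 and 2 at 10 uM. The 0.4 uM libraries and both iMDK groups lay below every vehicle library. The log2 fold change was -1.68 ± 0.59 at 0.4 uM (adjusted p = 0.01406), -1.62 ± 0.576 at 5 uM iMDK (0.0239) and -1.21 at 10 uM iMDK (0.06105). At these counts single libraries decide the calls, since the first had an adjusted p of 0.09334 without replicate 1 of 0.4 uM, and the second one of 0.1489 without replicate 3 of 5 uM iMDK. The first was 0.05669 with DESeq2, and the second was also lost without vehicle replicate 1 (0.06211) or 2 (0.06597), without iMDK 5 uM replicate 2 (0.07539) and with no filter on low counts (0.05536).

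In HepG2, CYP1A2 had 1, 0 and 1 counts with vehicle, 6, 7 and 3 at 0.2 uM PKF118-310 and 9 in the single library at 0.3 uM. With iMDK it had 1, 1 and 1 counts at 5 uM and 0 in all 3 libraries at 10 uM. The gene was too low to be tested in HepG2 alone and entered the fit of both lines only through its counts in Huh6, so the fitted difference between the lines there (2.94 at 0.2 uM PKF118-310, adjusted p = 0.0132, or 0.06132 without HepG2 vehicle replicate 2) is not read as a result.

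TIPARP, the ADP-ribosyltransferase that limits the receptor (chromosome 3, 156673235 to 156706770), rose in HepG2 under both inhibitors. It was 20.4, 25.9 and 23.9 CPM with vehicle and 46.0, 46.4 and 46.5 CPM at 0.2 uM PKF118-310, a rise of 0.99 ± 0.0666 (adjusted p = 6.058e-16). The single library at 0.3 uM held 39.4 CPM, above vehicle and below the 0.2 uM libraries, although its CYP1A1 level was the highest of all. Under iMDK it was 27.8, 26.5 and 28.3 CPM at 5 uM (0.25, adjusted p = 0.003521) and 28.7, 31.8 and 29.3 CPM at 10 uM (0.37 ± 0.0701, 2.134e-05). All treated libraries exceeded the controls. Vehicle replicate 1 was the lowest of its group, and without it the adjusted p at 5 uM was 0.08105. No member passed between the 2 iMDK doses in HepG2 with edgeR or DESeq2, 1 (CYP1A1) had an unadjusted p under 0.05, and 15% of all genes passed.

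In Huh6, TIPARP started higher and stayed nearly level. It was 69.2, 68.3 and 67.3 CPM with vehicle and 71.4, 74.9 and 74.6 CPM at 0.4 uM PKF118-310, a rise of 0.15 ± 0.0423 (adjusted p = 0.001968) with no overlap. At 10 uM iMDK it was 63.8, 61.1 and 61.1 CPM, all below the controls, with a log2 fold change of -0.10 that did not pass (adjusted p = 0.05812). So at 0.4 uM PKF118-310 TIPARP was higher while CYP1A1 was lower in the same 3 libraries. The step from 0.3 to 0.4 uM was 0.10 (adjusted p = 0.04661) and was lost in several alternatives, for example 0.08758 with DESeq2 and 0.2157 without 0.3 uM replicate 2. Vehicle-treated HepG2 was lower than Huh6 by -1.55 (adjusted p = 2.935e-31). The response differed between the lines by 1.06 at 0.2 uM PKF118-310 (adjusted p = 1.025e-17), 0.30 at 5 uM iMDK (0.002844, or 0.05015 without HepG2 vehicle replicate 1) and 0.50 at 10 uM iMDK (7.812e-07).

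**Figure D2:**
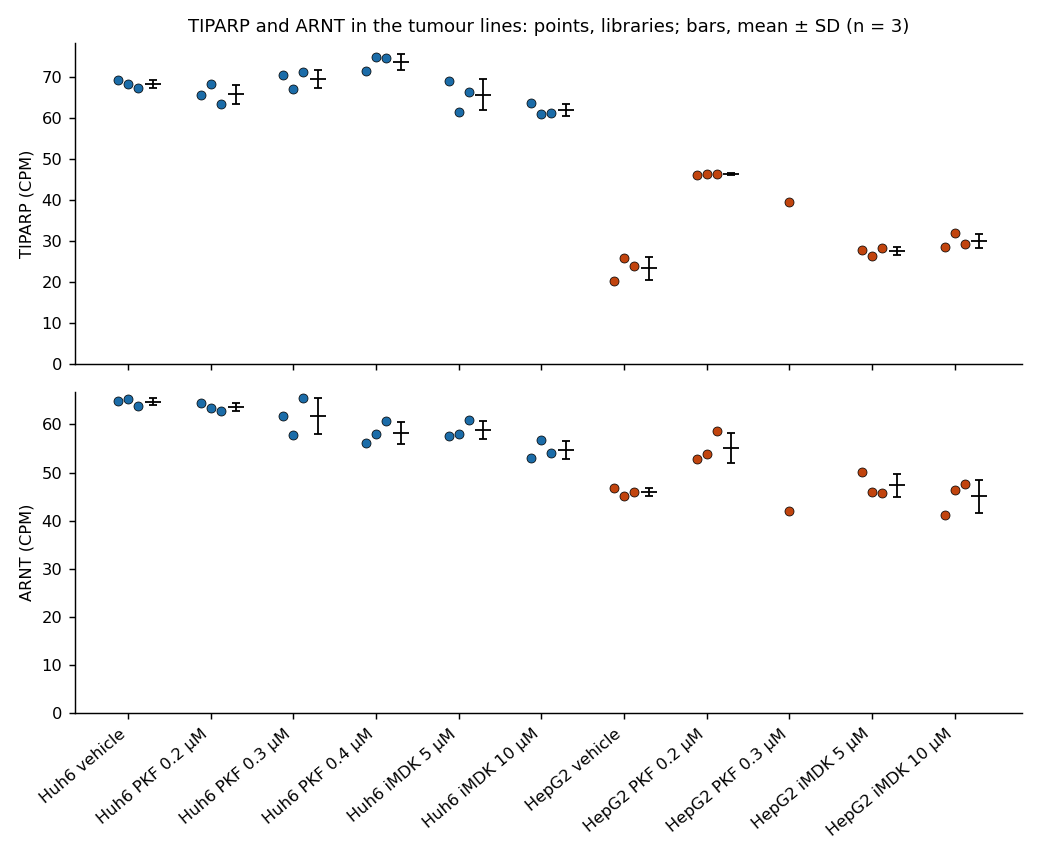
TIPARP and ARNT levels in each tumour line library (points, CPM) with the mean ± SD of 3 libraries (bars), Huh6 in blue and HepG2 in orange. HepG2 TIPARP goes from 20.4 to 25.9 CPM with vehicle to 46.0 to 46.5 CPM at 0.2 uM PKF118-310, while Huh6 TIPARP stays between 61.1 and 74.9 CPM in all groups and ARNT in HepG2 between 41.2 and 58.6 CPM.

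LRAT, which stores vitamin A as retinyl esters (chromosome 4, 154626945 to 154753118), was low in Huh6 and at the limit of detection elsewhere. In Huh6 it was 1.18, 1.19 and 0.921 CPM with vehicle, 0.726, 0.683 and 0.733 CPM at 0.4 uM PKF118-310, and 1.29, 1.38 and 2.35 CPM at 10 uM iMDK. The 0.4 uM libraries lay below the controls and the 10 uM iMDK libraries above them, yet neither difference passed (-0.57, adjusted p = 0.1488; 0.64, adjusted p = 0.06306). Without 10 uM iMDK replicate 1 or 2 the second did pass (0.03545 and 0.04688), which leaves replicate 3, the highest library. HepG2 held 0 to 4 counts of LRAT and THP-1 0 to 6, against 18 to 23 in vehicle-treated Huh6. LRAT could be tested only through Huh6, so no test of the line difference is given.

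CYP1B1, the extrahepatic CYP1 enzyme (chromosome 2, 38066973 to 38109902, minus strand), had 0 to 4 counts in every tumour line library. At this depth 3 counts are 0.15 to 0.164 CPM in HepG2, so no response of CYP1B1 was detectable in the tumour lines. The highest count, 4, was in the single HepG2 library at 0.3 uM PKF118-310, where CYP1A1 had 5007.

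**Figure D3:**
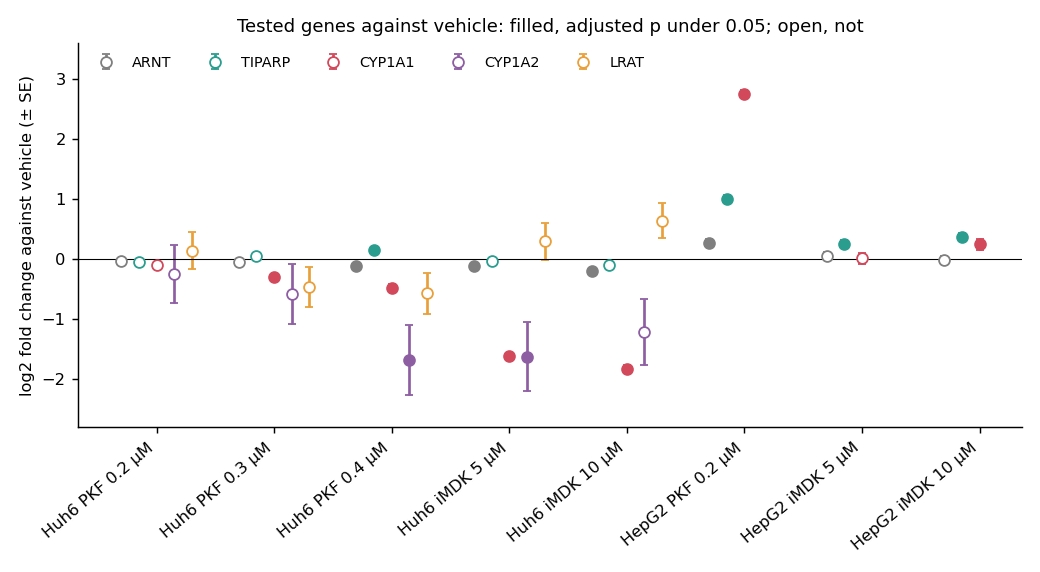
Log2 fold change against vehicle ± SE for each gene with enough counts, by line, inhibitor and dose, filled where the adjusted p was under 0.05. CYP1A1 goes from -0.10 to -1.82 across the Huh6 groups and stands at 2.75 in HepG2 at 0.2 uM PKF118-310, where TIPARP is at 0.99 and ARNT at 0.27.

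Other genes reported as receptor targets were read from a list of 15, of which 10 could be tested in each line. In HepG2 at 0.2 uM PKF118-310, 6 rose and 2 fell, against 71.9% of all genes passing (median log2 fold change 1.56, with the median of all genes within 0.0505 of 0 in this and all other comparisons). The growth factor EREG went from 4.80 to 62.6 CPM (3.72 ± 0.0874) and the monooxygenase CYP2S1 from 17.99 to 86.9 CPM (2.28 ± 0.0558). ALDH3A1, the aldehyde dehydrogenase of the classical receptor battery, rose from 0.587 to 2.74 CPM (2.21 ± 0.327, adjusted p = 2.104e-07), and the single library at 0.3 uM held 12.9 CPM from 238 counts. NQO1, the quinone reductase that both AHR and NRF2 drive, did not pass (791 and 760 CPM, -0.05, adjusted p = 0.1455). The transcription factor NFE2L2 (NRF2) fell by 0.34 and the amino acid transporter SLC7A5 fell by 0.27.

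**Figure D4:**
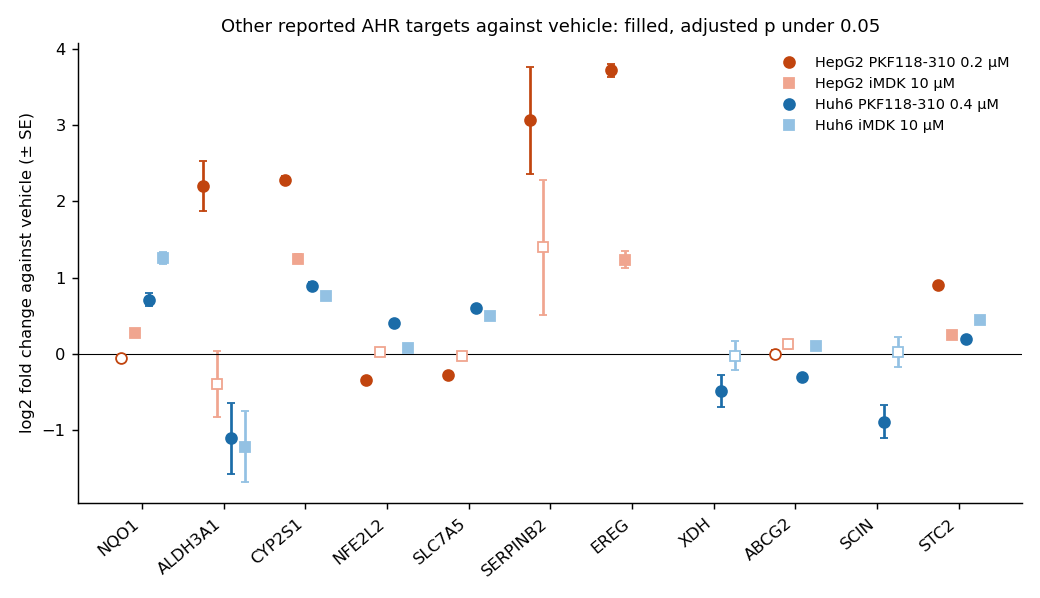
Log2 fold change against vehicle ± SE of other reported receptor targets at the highest replicated dose of each inhibitor and line, filled where the adjusted p was under 0.05. CYP2S1 is above 0 in all 4 comparisons, ALDH3A1 is at 2.21 in HepG2 with PKF118-310 and below 0 in the other 3, and NQO1 reaches 1.26 in Huh6 with iMDK.

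In Huh6, where 56.8% and 52.1% of all genes passed at the highest doses, 6 of 10 genes of the list rose and 4 fell at 0.4 uM PKF118-310 (median 0.302), and 7 rose and 1 fell at 10 uM iMDK (median 0.273). CYP2S1 went from 30.6 to 54.9 and 50.2 CPM (0.89 and 0.76). NQO1 was 11.7 CPM with vehicle, 15.6, 18.2 and 18.6 CPM at the 3 PKF118-310 doses and 27.8 and 27.1 CPM at the 2 iMDK doses, and it passed at each, with a log2 rise of 1.26 at 10 uM iMDK. ALDH3A1, on the other hand, was lower, as CYP1A1 was, going from 0.856 to 0.384 CPM at 0.4 uM PKF118-310 (adjusted p = 0.04034) and to 0.355 CPM at 10 uM iMDK (-1.21, 0.02747). Both calls rest on low levels, are marginal and were not followed in the alternative fits. In HepG2 at 10 uM iMDK, where 58.8% of all genes passed, 5 of 10 rose and 0 fell (median 0.265). Among them were CYP2S1 (1.25), EREG (1.23) and NQO1 (0.28). The rows of UGT1A1 and UGT1A6, glucuronidating enzymes of the same battery that share exons with their neighbours, were listed at 0, and as for AHR no level is read from them.

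The cytoplasmic complex and the nuclear partners of the receptor formed a list of 12 genes. In HepG2 at 0.2 uM PKF118-310, 5 of 11 tested rose and 3 fell (median -0.0284), where 71.9% of all genes passed. In Huh6 at 0.4 uM 7 of 12 rose and 2 fell (median 0.207), where 56.8% passed. HIF1A, a member of this list with 2 to 25 counts per tumour library, is another row too low to read a level from. RELB, the NF-kappaB subunit that can pair with AHR, rose by 1.05 in HepG2 and 2.53 in Huh6 at those doses, while the coactivator NCOA2 changed by -0.73 in HepG2 and -0.43 in Huh6. At 10 uM iMDK, 6 of 12 rose and 2 fell in Huh6 (median 0.231; RELB 2.85), where 52.1% of all genes passed. In HepG2 3 of 11 rose and 4 fell (median -0.0765; RELB 1.23), where 58.8% passed.

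Of 9 enzymes of tryptophan and kynurenine metabolism, which both make and break down receptor ligands, 3 could be tested in HepG2 and 4 in Huh6. IDO1, which starts the kynurenine route, was at 0. KYNU, which breaks kynurenine down, went opposite ways in the lines. In HepG2 it rose from 48.3 to 311 CPM at 0.2 uM PKF118-310 (2.7 ± 0.0412, adjusted p = 1.223e-35) and to 190 CPM at 10 uM iMDK, whereas in Huh6 it changed from 8.63 to 2.44 CPM at 0.4 uM (-1.78) and to 4.87 CPM at 10 uM iMDK (-0.78). The list as a whole had 1 gene higher and 2 lower in HepG2 at 0.2 uM (median -0.21), where 71.9% of all genes passed. In Huh6 at 0.4 uM it had 1 higher and 3 lower (median -0.426), where 56.8% passed.

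Genes of retinoid handling, the setting of LRAT, went both ways in HepG2 and Huh6. In HepG2 at 0.2 uM PKF118-310, 5 of 11 tested rose and 5 fell, against 71.9% of all genes passing (median 0.246). The retinal dehydrogenase ALDH1A1 went from 572 to 129 CPM (-2.14) and its paralogue ALDH1A2 from 1.63 to 6.49 CPM (1.99), and the retinol receptor STRA6 changed by -1.71 and the retinol dehydrogenase RDH10 by 1.55. At 10 uM iMDK 7 of 11 rose and 4 fell (median 0.369), where 58.8% of all genes passed. In Huh6 1 of 13 rose and 4 fell at 0.4 uM PKF118-310 (median 0.0226), where 56.8% of all genes passed. At 10 uM iMDK 2 rose and 6 fell (median -0.193), where 52.1% passed. CYP26A1, the retinoic acid hydroxylase, had 0 to 1 counts in every library and was not tested.

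The genes whose pattern over the 31 tumour line libraries was most like that of CYP1A1 were ranked by Pearson correlation of the log2 change from the vehicle mean of the same line, among 10895 genes. They were HPD (r = 0.968), an enzyme of tyrosine breakdown, the homeobox gene MSX1 (0.948), the hyaluronan synthase HAS3 (0.946), the serine hydroxymethyltransferase SHMT2 (0.942) and the lipid transfer gene GLTP (0.939). For TIPARP they were VASP (0.974), PERP (0.97), LAMB3 (0.969), DSTN (0.968) and S100A10 (0.967), which act in the cytoskeleton, cell junctions and matrix. These values are descriptions over libraries that share treatments and controls.

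In THP-1 the libraries from co-culture also carried tumour reads. Estimated from liver markers, the share was 8.3 to 11.2% with untreated HepG2, 5.5 to 7.3% and 1.9 to 4.4% with HepG2 given 5 and 10 uM iMDK, 0.54 to 2.2% with untreated Huh6 and 0.2 to 0.38% with Huh6 given iMDK. Single markers gave from 0.857 to 18.3% for untreated HepG2, so the estimate is rough. The subtraction based on it is not complete, since 5 of the 6 liver markers that could still be tested remained higher with HepG2 than alone (median log2 fold change 5.05). The 10 liver markers summed to 53.9 to 69.1 CPM in THP-1 alone, with AFP, APOB, TTR, FGB and DLK1 at 0, and to 2034 to 2535 CPM with untreated HepG2 and 118 to 263 CPM with untreated Huh6. Of the 8 genes, 4 could be tested in THP-1 (ARNT, TIPARP, CYP1A1 and CYP1B1). With HepG2 1 rose (CYP1A1, by a few reads) and 1 fell, where 21.6% of all genes passed, and with Huh6 1 rose, where 1.83% passed and 1.32% rose. Between the 2 co-cultures 1 was lower with HepG2 (16.7% of all genes passed, 7.56% lower).

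CYP1B1 was the CYP1 gene of these macrophages, and it fell with HepG2. It was 63.3, 47.6 and 49.6 CPM in THP-1 alone and 13.2, 11.4 and 14.6 CPM with untreated HepG2, a log2 fold change of -2.04 ± 0.171 (4.11-fold lower, adjusted p = 1.264e-08) that ranked 25 from the lowest of 15500 genes. With untreated Huh6 it was 38.8, 34.3 and 33.8 CPM, below the cells alone and above those with HepG2 in every library. Against THP-1 alone the Huh6 difference was -0.58 ± 0.16 (adjusted p = 0.07124). Same-numbered libraries of these groups deviated together, and with the replicate number as a block the adjusted p was 0.0007587 (927 genes called instead of 283). HepG2 against Huh6 co-culture gave -1.46 ± 0.171 (adjusted p = 2.464e-06). HepG2 and Huh6 have next to no CYP1B1, and once the estimated tumour reads were subtracted the 3 differences were -1.85 (adjusted p = 4.237e-07), -0.55 (0.2021) and -1.29 (4.547e-05). In GENCODE 29, CYP1B1 overlaps CYP1B1-AS1 on the opposite strand over 678 of its 6014 exon bases. That row held 38 to 105 counts in THP-1, and whether the counting used strand is not given in the sources used here.

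**Figure D5:**
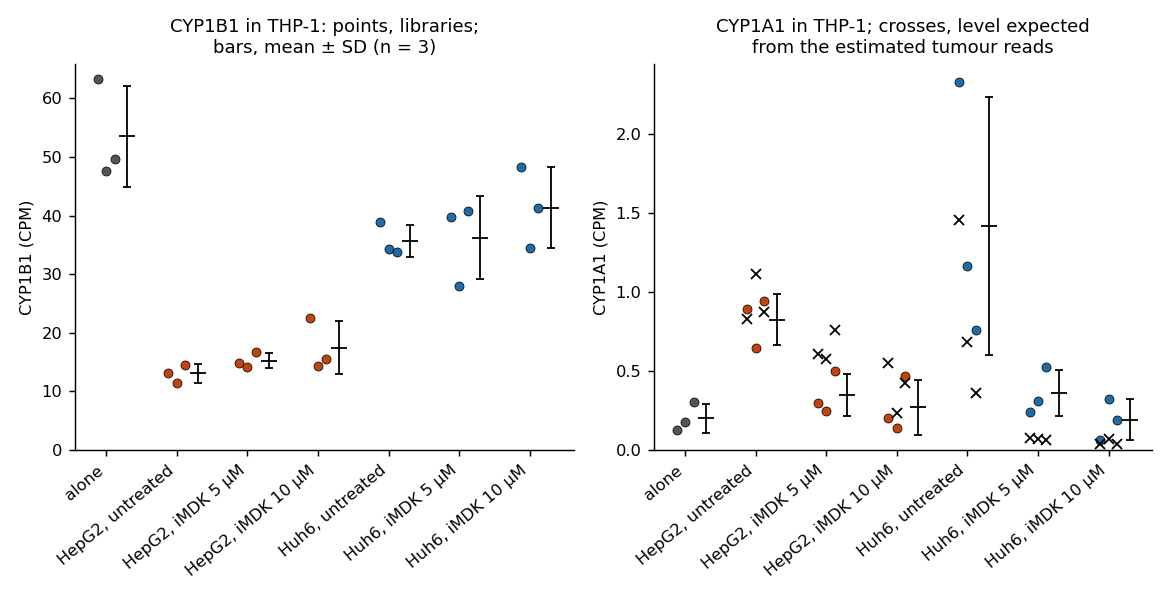
CYP1B1 (left) and CYP1A1 (right) levels in each THP-1 library (points, CPM) with the mean ± SD of 3 libraries (bars), by co-culture partner and the iMDK dose that partner had received, with crosses for the CYP1A1 level expected from the estimated tumour reads. CYP1B1 is 47.6 to 63.3 CPM alone, 11.4 to 14.6 CPM with untreated HepG2 and 33.8 to 38.8 CPM with untreated Huh6.

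Earlier iMDK treatment of the tumour cells left CYP1B1 in THP-1 within reach of its untreated co-culture. With HepG2 it was 14.9, 14.2 and 16.8 CPM after 5 uM (0.22, adjusted p = 0.753) and 22.6, 14.4 and 15.5 CPM after 10 uM (0.44, 0.1966). With Huh6 it was 39.7, 28 and 40.8 CPM after 5 uM (0.02, adjusted p = 1) and 48.3, 34.5 and 41.2 CPM after 10 uM (0.20, 1). All 4 groups stayed closer to their own untreated co-culture than to THP-1 alone in their means. No member passed in these 4 comparisons with edgeR (0.0903%, 3.34%, 0.0129% and 0.0581% of all genes did, in that order), 1, 2, 1 and 1 had an unadjusted p under 0.05, and DESeq2 called 0, 0, 0 and 1. For the 5 uM groups the replicate numbers paired the libraries, and the block raised the genes called from 14 to 614 with HepG2 and from 2 to 21 with Huh6, with no member among them. The 10 uM groups were not taken as paired. There the block gave CYP1B1 with HepG2 an adjusted p of 0.02116 and CYP1A1 with Huh6 one of 0.02374.

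CYP1A1 in THP-1 was a matter of a few reads. It had 2, 3 and 5 counts alone, 15, 10 and 14 with untreated HepG2 and 38, 16 and 11 with untreated Huh6. The gene could be tested only because these 2 co-cultures had enough counts. Both lay above the cells alone in every library (1.98 ± 0.577, adjusted p = 0.01615, and 2.78 ± 0.55, 0.008221). The estimated tumour reads alone would give 13.5, 17.2 and 13.5 counts in the HepG2 libraries, at the level seen. In the Huh6 libraries these reads would give 22.9, 9.59 and 5.38, below the level seen in each. The estimate is rough there too, since single markers gave shares of 1.38 to 5.03%, 0.561 to 1.65% and 0.254 to 0.713%. Whether CYP1A1 exceeded the tumour reads was not tested. For HepG2 given iMDK the estimate was 9.93, 9.31 and 10.7 counts (5 uM) and 8.11, 3.4 and 5.55 (10 uM). All but the last exceeded the counts seen, and for Huh6 given iMDK all estimates were below them. After the subtraction the gene was too low to be tested. Without THP-1 alone replicate 1 the adjusted p-values were 0.07053 and 0.07414, and without THP-1 alone replicate 2 (HepG2) or Huh6 co-culture replicate 1 they were 0.06072 and 0.09861. After iMDK the counts were 5, 4 and 7 (5 uM) and 3, 2 and 6 (10 uM) with HepG2, and 4, 4 and 8 and 1, 5 and 3 with Huh6. These are back near the cells alone, and none of the 4 differences from the untreated co-culture passed. The largest, with Huh6 after 10 uM, was -2.88 ± 0.56 (adjusted p = 0.05503, or 0.02893 with DESeq2).

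ARNT and TIPARP were expressed in THP-1 and passed in no comparison there. ARNT was 108, 102 and 98.3 CPM alone and 115, 111 and 123 CPM with untreated HepG2, which did not overlap (0.17, adjusted p = 0.2235), and once the estimated tumour reads were subtracted, whose ARNT level is lower, the value was 0.31 (0.03125). TIPARP was 32.5, 32.7 and 31.7 CPM alone and 25.1, 26.5 and 35.4 CPM with HepG2, where the third library stood above all others. CYP1A2 had 0 to 4 counts in THP-1.

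In THP-1, a tryptophan enzyme and targets of the hypoxia factors that share ARNT changed with HepG2. TDO2, which starts the kynurenine route and was abundant here, went from 826 to 268 CPM with untreated HepG2 (-1.63, adjusted p = 1.214e-08; -1.44 after the subtraction) and was 434 CPM after 10 uM iMDK, higher than with untreated HepG2 by 0.71 (0.003996). With untreated Huh6 it was 634 CPM, a change of -0.38 that did not pass (0.2005). The list of 9 had 2 higher and 2 lower of 6 tested with HepG2, where 21.6% of all genes passed, and 0 and 1 after the subtraction. Of 8 hypoxia targets, 7 rose and 0 fell with HepG2, where 21.6% of all genes passed (median 1.67), and 6 rose after the subtraction (median 1.55). CA9, a carbonic anhydrase, had 0 to 1 counts alone and 46 to 76 with HepG2, the vasodilator ADM went from 2.35 to 12.7 CPM (2.42), and BNIP3, a mitophagy gene, from 13.3 to 52.4 CPM (1.97). With Huh6, where only 1.83% of all genes passed, none of the 8 did (median 0.284, and 1 lower with the block). Against Huh6 co-culture 6 were higher with HepG2, where 16.7% of all genes passed, or 5 after the subtraction.

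The other receptor targets went both ways in THP-1. With untreated HepG2, 2 of 9 tested were higher and 3 lower, against 21.6% of all genes passing (median -0.0728), or 1 and 4 after the subtraction (median -0.337). SLC7A5 changed from 395 to 171 CPM (-1.22), NQO1 from 257 to 180 CPM (-0.52, adjusted p = 5.221e-05, or -1.05 after the subtraction) and CYP2S1 from 51.3 to 37.3 CPM (-0.47). SCIN, an actin-severing protein, rose from 6.91 to 16.7 CPM (1.26). With untreated Huh6, where 1.83% of all genes passed, 0 were higher and 2 lower, SLC7A5 (-0.98) and STC2 (-0.85), or 2 and 2 with the block. ALDH1A1, the member of the retinoid list that rose most (from 0.369 to 19.7 CPM), moved with the liver markers, and 0 genes of that list were higher after the subtraction while 1 was lower.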

How the data were processed

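The authors deposited raw read counts per gene, in a table for the tumour lines and a table for THP-1, and no other unit was used. Per the submitters' processing notes, STAR 2.7.3a, SAMtools 1.16.1, featureCounts and edgeR 3.36 were used with GRCh38. The annotation release, the strand setting and the treatment of reads shared by genes are not given in the sources at hand. Per the labels' protocols, libraries were poly(A)-selected and made with a directional kit.

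The test was that of edgeR 4.0.16 in R 4.3.3 with limma 3.58.1, using filterByExpr by group, TMM scaling, a model of group means and the two-sided quasi-likelihood F test, adjusted by Benjamini-Hochberg over all genes tested (15029 in Huh6, 14111 in HepG2, 16321 in both lines, 15500 in THP-1), and called under 0.05. HepG2, Huh6 and THP-1 had separate fits. Differences between lines used all 30 replicated tumour libraries, and the single HepG2 library at 0.3 uM entered no fit. The SE can understate the error of large changes from a level near 0. CPM came from the same counts, and 0 per-sample columns were left unused. Tumour reads in THP-1 were estimated as the median, over liver markers of at least 100 CPM in the matching tumour line group, of the excess over THP-1 alone divided by that group's CPM, and subtracted in an alternative. That group had 48 h of inhibitor and no co-culture.

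The 8 genes and the lists were chosen with earlier results of these data known, so lists are described by counts and medians without a test. The rule for naming genes took all 8 genes, NQO1, ALDH3A1, CYP26A1 and another gene, and up to 4 passing genes per list and comparison with the largest change, and the text gives a selection of these. Some genes of the lists enter the counts and medians but are not reported here by name. KYNU in Huh6, NFE2L2, SLC7A5, NQO1 and others with smaller changes were given after their values were seen. Alternatives were size factors of DESeq2's kind in edgeR, DESeq2 1.42.0, no filter on low counts, the replicate block, only the groups compared, the subtraction, and each library left out in turn. The statistics were checked on simulated counts with no replicate effect and no tumour reads. That check does not cover these features of the THP-1 libraries. Gene positions and overlaps are from GENCODE 29 on GRCh38, not from the release used for counting, and promoter windows are from RefSeq.

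Same-numbered libraries were taken as paired where all 3 correlations of their deviations exceeded 0.1, which held in THP-1 for Huh6 co-culture against THP-1 alone (0.289, 0.155 and 0.109), for HepG2 with 5 uM iMDK against untreated HepG2 (0.445, 0.186 and 0.451) and for Huh6 with 5 uM iMDK against untreated Huh6 (0.391, 0.114 and 0.241). Over all THP-1 groups the median correlation was 0.241 for the same number and -0.13 for different numbers. Of 63 same-number pairs, 82.5% exceeded 0.1. The rule thus left out comparisons such as HepG2 after 10 uM iMDK against untreated HepG2 (0.0749, 0.288 and 0.347). The pairing comes from the data, since the labels give numbers only.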

Additional observations from a re-analysis of the deposited data

Results flagged for a closer look

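The responses that differed between HepG2 and Huh6 by the test of the difference itself (HepG2 minus Huh6, log2, edgeR) were these. At 0.2 uM PKF118-310 the differences were 2.86 for CYP1A1, 2.94 for CYP1A2, 1.06 for TIPARP and 0.31 for ARNT. At 5 uM iMDK they were 1.65 for CYP1A1, 0.30 for TIPARP and 0.18 for ARNT, and at 10 uM iMDK 2.10 for CYP1A1, 0.50 for TIPARP and 0.22 for ARNT. For CYP1A1 the lines started at different levels (10.4 CPM on average in HepG2 with vehicle), and the liver markers also responded by different amounts in the lines. Their part in these differences was not tested. CYP1A2 was also flagged at 0.2 uM PKF118-310 (2.94) but is not read as a result. It entered this fit only through its counts in Huh6 (0 to 7 per replicated HepG2 library). Its call ended without HepG2 vehicle replicate 2 (adjusted p = 0.06132). The ARNT difference at 5 uM iMDK (adjusted p = 0.04394) was lost in 9 of 12 fits with a library left out (up to 0.1735), with DESeq2 (0.05505), with the other size factors (0.05702) and with no filter (0.08975), and the one at 10 uM iMDK (0.0131) without HepG2 10 uM iMDK replicate 3 (0.07059).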

How the results depend on the processing

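Across 75 fits with a library left out and 29 other fits, no member's called change reversed. Of the members' values, 640 kept their side of the threshold with a library left out, 43 lost their call and 7 gained one. In the other fits 435 kept their side, 15 lost their call and 8 gained one. Values that a fit could not test are not in these numbers, such as CYP1A1 in THP-1 after the subtraction. In the tumour lines the number of members called changed from 4 to 2 (Huh6, 0.4 uM PKF118-310) and from 2 to 1 (HepG2, 10 uM iMDK) with DESeq2, from 3 to 1 (Huh6, 5 uM iMDK) with DESeq2 or no filter on low counts, and from 2 to 1 (Huh6, 0.4 against 0.3 uM) with DESeq2, no filter, the replicate block or only the groups compared. In THP-1 with Huh6 against alone it went from 1 to 2 with DESeq2, no filter or the replicate block. After the subtraction it was 0, since CYP1A1, the 1 gene called, could no longer be tested. With HepG2 against alone it stayed at 2 after the subtraction, with ARNT in place of CYP1A1. With HepG2 after 10 uM iMDK it went from 0 to 1 with the replicate block (CYP1B1, adjusted p = 0.02116), and with Huh6 after 10 uM iMDK from 0 to 1 with DESeq2, no filter or the replicate block.

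With a library left out, the counts ranged from 2 to 4 for Huh6 at 0.4 uM PKF118-310, 0 to 2 for 0.3 against 0.2 uM and for 0.4 against 0.3 uM, 1 to 2 at 5 uM iMDK, 2 to 5 at 10 uM and 0 to 1 between these doses. They ranged in HepG2 from 0 to 1 at 5 uM iMDK and between the doses, and 1 to 2 at 10 uM. For the differences between lines they ranged from 3 to 4 (PKF118-310), 1 to 3 (5 uM iMDK) and 2 to 3 (10 uM). The 4 for PKF118-310 includes CYP1A2, which is not read as a result. In THP-1 they ranged from 1 to 2 (HepG2 against alone) and 0 to 1 (Huh6 against alone, and Huh6 after 10 uM iMDK). The cause of these changes was not tested.

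In THP-1 the number of all genes called moved by over 1.5 times in several fits. HepG2 against alone went from 3354 to 5119 with the block, and HepG2 against Huh6 from 2587 to 4506. Huh6 against alone went from 283 to 689 (no filter), 927 (block) and 69 (subtraction). HepG2 after 5 uM iMDK went from 14 to 148 (DESeq2), 320 (no filter), 614 (block) and 271 (subtraction), and after 10 uM from 518 to 854 (no filter) and 1802 (block). Huh6 after 5 uM went from 2 to 20, 111, 21 and 1, and after 10 uM from 9 to 44, 167, 75 and 2, in the order DESeq2, no filter, block and subtraction. In the tumour lines same-numbered libraries did not deviate together (correlations of -0.0471 to 0.0423), so there the block rests on a number alone. At these depths CYP1A2, LRAT and, in THP-1, CYP1A1 rest on few counts per library, and CYP1B1 in the tumour lines cannot be read.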
